A study of Caenorhabditis elegans with 6 samples.

Results

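A heterochromatin mark and a mark of active chromatin were set against each other in the body wall muscle of L3 larvae of *Caenorhabditis elegans*, window by window along the genome. H3K9me2 and H3K27ac were each profiled in 1 library of wild-type (WT) N2 (Bristol) muscle cells by ChIC-seq, a CUT&RUN-like assay in which a mark-specific antibody tethers protein A fused to micrococcal nuclease (MNase) and the fragments cut free are sequenced. All 99471 nuclear windows of about 1 kb with a read in any library were compared, of 100279 nuclear windows and 100293 windows in all; 14 were mitochondrial and 808 held no read. The difference was the log2 scaled reads of H3K9me2 minus those of H3K27ac, with each library scaled by its total and a pseudocount of 8 added. No control was subtracted, since the same MNase control would cancel out of a difference between marks of 1 genotype. This does not remove background reads from the difference, which moved with the control reads of a window (below). Windows were also summed to 10026 windows of 10 kb.

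4 further libraries were used only for comparison. They were WT H3K9me3, H3K27ac of the *met-2(n4256)* mutant, and an MNase library made without antibody for each genotype. Per a figure legend of the study, muscle cells for ChIC-seq were sorted on the reporter myo-3p::RFP, driven by the promoter of a muscle myosin gene. The ChIC-seq methods name only the DNA stain Hoechst, used to gate fixed cells. The sample labels give the WT as N2, and the paper names the reporter strain *gwIs4*. Whether the sorted cells carried muscle marks at muscle genes was not checked, because no gene annotation of the genome build of the files (ce10) was used here. Per the methods, counted cells were divided into tubes by antibody and mutant, and no source says that the WT libraries came from separate cultures. With 1 library per mark there was no replicate check of any difference.

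H3K9me2 is a mark of heterochromatin, placed in worm somatic cells by the methyltransferase MET-2, and H3K9me3 is placed by a separate enzyme, SET-25. H3K27ac is found at active promoters and enhancers. Lysines 9 and 27 are separate residues of the histone H3 tail. In *C. elegans* the distal arms of the autosomes are rich in repeats and in H3K9 methylation and contact the nuclear envelope, whereas the central regions hold most of the broadly expressed genes.

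The H3K9me2 library held 23850236 reads and the H3K27ac library 13658228, within a range of 2475550 to 28519008 over the 6 libraries. The median nuclear window held 201 H3K9me2 reads and 130 H3K27ac reads. Counting error alone then gave the difference in such a window a 95% interval of ± 0.32 on the log2 scale, and ± 0.096 in a median 10 kb window. Intervals cover counting error only, since there was 1 library per mark. Any PCR copies left after the authors removed duplicates would make them too narrow. H3K9me2 reads were the more unevenly spread, with 6.62% of them in the top 1% of windows against 3.68% of H3K27ac reads. Across the 1 kb windows the marks were positively correlated (Spearman's rho = 0.51), as each was with the WT MNase control (0.51 for H3K9me2 and 0.43 for H3K27ac). Windows are neighbours along a chromosome and share sequence and depth, so these correlations are descriptive.

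At 1 kb the median difference was -0.15, with quartiles of -0.60 and 0.35 and a range of -3.03 to 4.88. H3K9me2 exceeded H3K27ac by more than 0.5 (1.41-fold) in 19635 windows, or 19.7%, and H3K27ac exceeded H3K9me2 by that much in 29804 windows, or 30%. Further out the sides were closer: a difference above 1 was found in 8076 windows and one below -1 in 9328, and the 95th percentile lay at 1.25 and the 5th percentile at -1.20. These splits moved with the scaling: edgeR TMM factors raised the median difference by 0.12, and 24.1% of windows then lay above 0.5 and 23.7% below -0.5.

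Under total-count scaling the balance turned with the window size, whereas under TMM factors H3K9me2 led at 1 kb and at 10 kb. Of the 10 kb windows, 1364 (13.6%) lay above 0.5 and 1095 (10.9%) below -0.5, and beyond 1 the counts were 311 for H3K9me2 and 8 for H3K27ac. Under TMM factors the 10 kb shares were 18.7% and 4.54%. Of 999 sums over 100 kb, 77 lay above 0.5 and 3 below -0.5, and 1 of those 3 rested on 8 H3K9me2 and 18 H3K27ac reads. The SD across windows fell with their size, with 0.75 at 1 kb, 0.46 at 10 kb and 0.30 at 100 kb. The upper tail shrank less than the lower one. The share of windows called on the H3K27ac side was thus much smaller at 10 kb than at 1 kb, and the share on the H3K9me2 side less so, under either scaling.

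**Figure D1:**
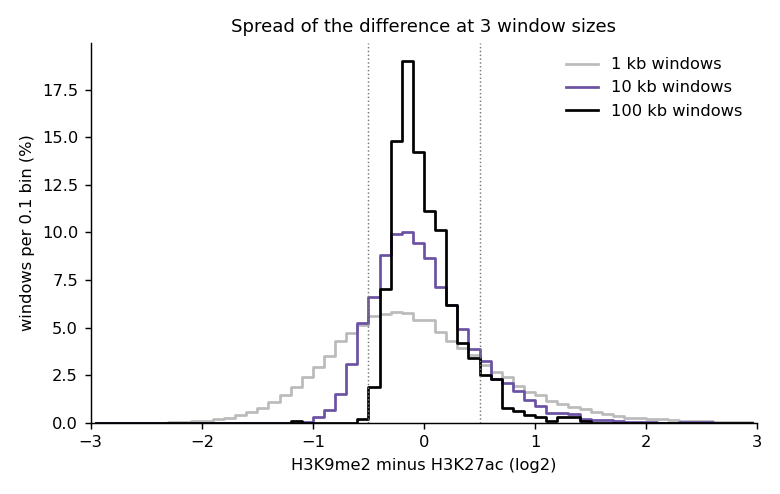
Share of windows (%) per step of 0.1 in the log2 difference, H3K9me2 minus H3K27ac, for 1 kb, 10 kb and 100 kb windows; dotted lines mark 0.5 and -0.5, and values beyond 3 on either side are not drawn. The 1 kb curve is wide on both sides, and at 100 kb an upper tail is left with 77 sums above 0.5 against 3 below -0.5 (total-count scaling; TMM factors raise the 1 kb median by 0.12).

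Windows past the threshold differed in which mark was away from its usual level. Of the windows above 0.5, 78.3% had H3K9me2 reads above that library's median, and 52.7% combined high H3K9me2 with low H3K27ac. A further 25.2% were high in both marks and 21.4% low in both. Of the windows below -0.5, 45.7% combined low H3K9me2 with high H3K27ac, 20.2% were high in both and 33.2% low in both. The difference is thus a relative measure, and a window above 0.5 was not always rich in H3K9me2 reads.

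The chromosomes fell into an order with V at the top and X at the bottom. The median difference was 0.05 on V, -0.13 on II, -0.14 on IV, -0.22 on I, -0.22 on III and -0.28 on X. On V, 28.6% of 1 kb windows lay above 0.5 and 21.4% below -0.5. Under total-count scaling the other chromosomes had more windows below -0.5 than above 0.5. On X, 13.7% lay above 0.5 and 35.1% below -0.5. X lay 0.16 below the autosomes in its median difference, and 0.10 below them with chromosome V left out. The median H3K9me2 reads of X were 1.02 times those of the autosomes, and its H3K27ac reads 1.14 times. Whether either mark accounts for the gap was not tested. The WT MNase control of X stood at 1.0 times the autosomal median. *met-2* H3K27ac stood at 1.14 times and the *met-2* MNase control at 1.10 times.

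Arms and centres of the autosomes differed in the same sense on every chromosome. The median difference was 0.02 over 50720 arm windows and -0.31 over 31097 centre windows, a gap of 0.32. In the arms 26.9% of windows lay above 0.5 and 23.8% below -0.5, whereas in the centres the shares were 11.4% and 37.2%. The gap was 0.30 on I, 0.37 on II, 0.31 on III, 0.16 on IV and 0.40 on V. Each of the 10 single arms lay above the centre of its own chromosome, by 0.11 for the left arm of IV at the least and 0.54 for the right arm of V at the most. With *met-2* H3K27ac in place of the WT library all 10 still did, by 0.06 to 0.39. The gap over all autosomes was then 0.21.

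The read levels behind this gap did not run in opposite directions. Median H3K9me2 reads in arms were 0.87 times those in centres, and H3K27ac reads 0.68 times. Arms therefore held fewer reads of both marks, and the deficit was larger for H3K27ac. The WT MNase control was also lower in arms, at 0.85 times its level in centres, and H3K9me3 stood at 0.92 times. *met-2* H3K27ac stood at 0.75 times and the *met-2* MNase control at 0.79 times. When the autosomal windows were divided into 10 equal groups by their WT control reads, arms lay above centres in 10 of 10 groups, by 0.17 in the group with the fewest control reads and by 0.32 to 0.38 in the others. The difference itself moved with the control, with a median of -0.21 in the lowest group and 0.01 in the highest, and the part of the control in the layout was not otherwise tested.

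**Figure D2:**
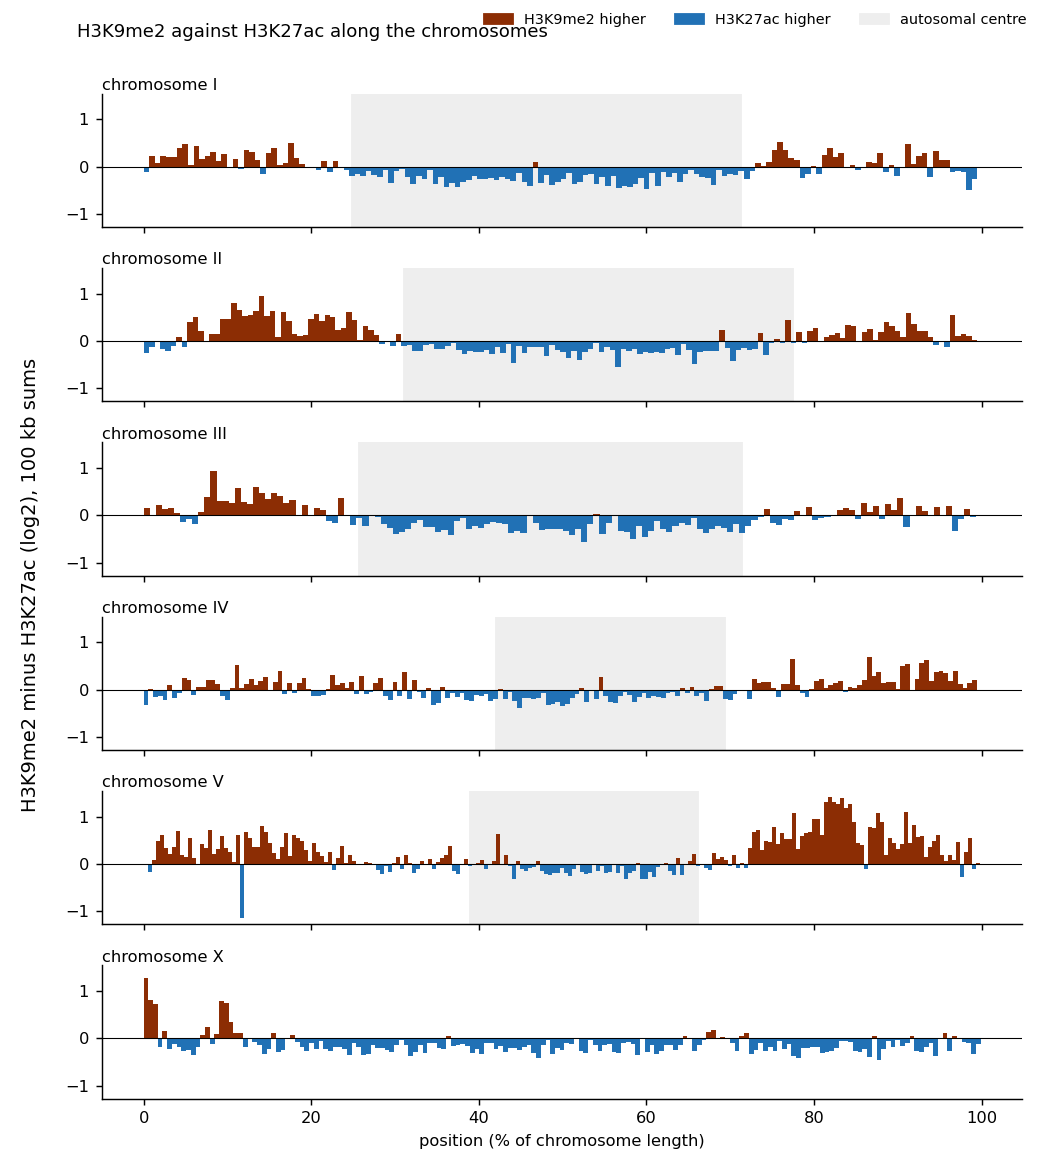
Log2 difference, H3K9me2 minus H3K27ac, in 100 kb sums along the 6 chromosomes; position is given in % of chromosome length, bars above 0 (H3K9me2 higher) are brown, bars below 0 (H3K27ac higher) are blue, and grey marks the autosomal centres. The right arm of V holds the tallest bars, up to 1.42, and the isolated bar of -1.15 on the left of V rests on 8 and 18 reads; TMM factors raise all bars by about 0.1.

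Layout along the chromosomes was examined in twentieths of chromosome length. On V the median difference was 0.98 between 80 and 85% of its length, the highest of any twentieth, and -0.31 between 55 and 60%. On II it reached 0.52 between 10 and 15%. On X no twentieth rose above 0 under total-count scaling, and the highest, with -0.02, was at the left end. The lowest twentieth lay at 55 to 60% on I, II, IV and V, at 35 to 40% on III and at 75 to 80% on X. Sums of 100 kb above 0.5 numbered 46 on V, 14 on II, 7 on IV, 5 on X, 3 on III and 2 on I. Of those 5 on X, the one at the left tip was the highest (chrX:1-99824, 1.27, with 18598 H3K9me2 and 4408 H3K27ac reads).

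The right arm of V stood furthest from the rest. Its median difference was 0.32, 41.7% of its 7008 windows lay above 0.5 and 14.8% below -0.5. Median scaled H3K9me2 reads on this arm were 136, against 143 over all windows, and those of H3K27ac 103, against 162. The arm was thus low in H3K27ac and not rich in H3K9me2 by its median. At 10 kb, 344 of its 707 windows (48.7%) lay above 0.5, set against 13.6% of all 10 kb windows. The left arm of II followed with 156 of 471 (33.1%). Chromosome V as a whole held 572 of the 1364 such windows, or 41.9%. The 10 kb windows below -0.5 were spread more evenly. X held the largest number, 249 or 14.1% of its windows. The shares were 14.7% on I and 14.4% on III, and the lowest was 5.31% on V. The 4 highest sums of 100 kb all lay at 81 to 83% of the length of V. The highest of them (chrV:17099010-17199008) held 23643 H3K9me2 reads and 5063 H3K27ac reads, with 51146 reads of H3K9me3 and 9025 of *met-2* H3K27ac.

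Runs were then drawn up, a run being an unbroken stretch of adjacent windows past the threshold on 1 side. The 19635 H3K9me2 windows formed 12299 runs and the 29804 H3K27ac windows 17408 runs. Most were single windows: 69.0% of H3K9me2 runs and 60.6% of H3K27ac runs. There were 430 H3K9me2 runs and 633 H3K27ac runs of 5 windows or more; under TMM factors the counts were 588 and 300, and at a threshold of 1 they were 77 and 11, so the order at this length turned under either of these. Under total-count scaling at 0.5, runs of 10 or more numbered 49 and 18, and runs of 20 or more 7 and 0. The longest were 31 and 17 windows. A called window was followed by another of its kind in 37.4% of cases for H3K9me2 and 41.6% for H3K27ac, both above the 19.7% and 30% of windows called. A larger share of H3K9me2 runs than of H3K27ac runs were thus single windows, with fewer windows called, and H3K9me2 also gave the longest runs.

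**Figure D3:**
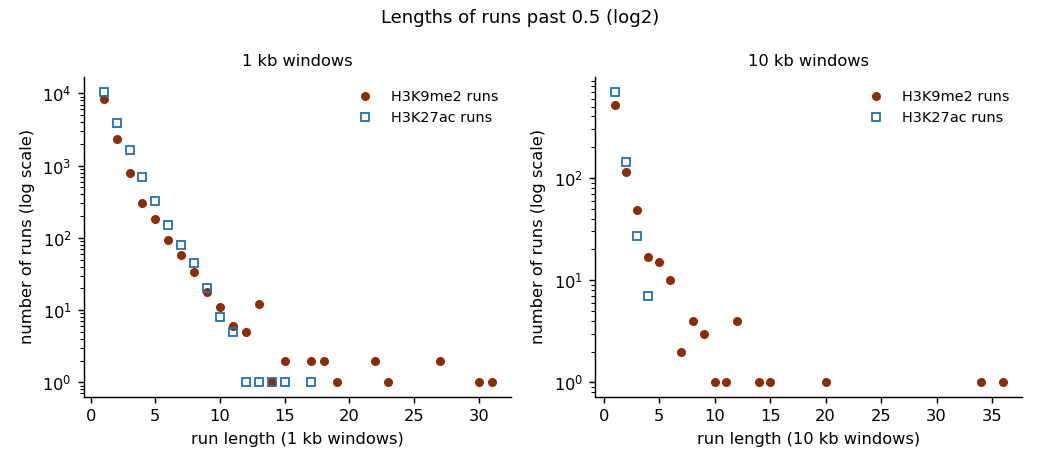
Number of runs (log scale) by run length in windows, for 1 kb windows on the left and 10 kb windows on the right; filled circles are H3K9me2 runs (difference above 0.5) and open squares H3K27ac runs (below -0.5). H3K9me2 runs reach 31 windows of 1 kb and 36 of 10 kb, and H3K27ac runs end at 17 and 4 (12 in place of 17 under TMM factors).

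Long runs of the 2 kinds lay in different places. Of the 430 H3K9me2 runs of 5 or more windows, 367 (85.3%) were in autosomal arms and 20 in centres, which is 7.24 and 0.643 per 1000 windows. The H3K27ac runs of that length were denser in centres, with 197 in arms and 294 in centres, or 3.88 and 9.45 per 1000 windows. A further 142 were on X. The right arm of V alone held 144 of the H3K9me2 runs (33.5%) and 33 of the 49 runs of 10 or more (67.3%), with 7.05% of the windows compared. Leaving out chromosome V left 225 H3K9me2 runs of 5 or more windows, the longest of 22 windows.

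The 3 longest H3K9me2 runs at 1 kb all lay on the right arm of V. The first (chrV:19008993-19039991) spanned 31 windows with a mean difference of 1.91, and held 15598 H3K9me2 and 2301 H3K27ac reads. Its H3K9me3 and WT control reads were 9679 and 3295. The second (chrV:17038011-17068010) spanned 30 windows with a mean of 1.38, from 7115 H3K9me2 and 1369 H3K27ac reads. It carried 14960 H3K9me3 reads, more than its H3K9me2 reads, whereas the first run had fewer H3K9me3 reads than H3K9me2 reads. The third (chrV:16185019-16212018) spanned 27 windows with a mean of 1.24, from 7201 H3K9me2 and 1612 H3K27ac reads. With *met-2* H3K27ac as the other side its mean was 0.64, and 25 of the 27 windows were above 0.

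The longest H3K27ac runs were shorter and of smaller mean difference. They lay on X (chrX:3424794-3441793, 17 windows, mean -0.95), on II (chrII:760432-775431, 15 windows, -1.02) and on I (chrI:6192944-6206943, 14 windows, -0.89). Their reads were 2941 of H3K9me2 and 3254 of H3K27ac on X, 1688 and 2057 on II, and 2520 and 2656 on I. Raw reads of H3K27ac exceeded those of H3K9me2 in all 3 runs, although the H3K27ac library was the smaller. Median scaled H3K27ac reads were 221 on X and 215 on I, against 162 over all windows, but 165 on II. Those of H3K9me2 were below 143, the median of all windows, in each run, with 83.3 on II. WT control reads were 70.5 on II, against 124 over all windows, and above 124 on X and I. The run on II was thus low in H3K9me2 and in control reads, with H3K27ac near its usual level. On II the run lay in the left arm, the same arm in which 33.1% of 10 kb windows lay above 0.5.

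Summed to 10 kb, the contrast in length was sharper. There were 45 H3K9me2 runs of 5 or more 10 kb windows and no H3K27ac run of that length, whose longest was 4 windows. An H3K9me2 window of 10 kb was followed by another in 45.1% of cases, set against the 13.6% of windows called, and an H3K27ac window in 19.9%, set against 10.9%. The longest H3K9me2 runs were again on V, spanning 36 windows (chrV:17349008-17709004, mean 1.28), 34 windows (chrV:16999011-17339007, mean 1.36) and 20 windows (chrV:18259000-18458997, mean 1.06). In the 36-window run 293 of its 359 windows of 1 kb lay above 0.5 and 5 below -0.5. In the 34-window run 277 of 336 lay above and 0 below. The longest H3K27ac runs of 10 kb windows were 7 runs of 4 windows each, and the 3 of largest mean difference lay on III (chrIII:6069896-6109894, mean -0.77, and chrIII:5029905-5069904, mean -0.71) and on X (chrX:12409711-12449709, mean -0.60).

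The 36- and 34-window runs were neighbours. When a single window short of the threshold was allowed to interrupt a run, they joined into 1 stretch of 73 windows (chrV:16979012-17709004), of which 71 were past 0.5 and the other 2 were at 0.23 and 0.48. H3K9me2 reads in this stretch were at 1.02 times the median 10 kb window, and H3K27ac reads at 0.39 times. The stretch was thus low in H3K27ac with H3K9me2 near its usual level. H3K9me3 stood at 1.68 times its median, *met-2* H3K27ac at 0.43 times and the WT control at 0.79 times. The next such stretches were also on V, of 27 windows (chrV:18219000-18488997) and 23 windows (chrV:2849143-3079139), with H3K9me2 at 0.85 and 0.92 times and H3K27ac at 0.41 and 0.47 times the median.

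Levels of both marks changed with the length of the run, so short and long H3K9me2 runs were not alike. Single H3K9me2 windows had a median of 253 scaled H3K9me2 reads and 134 scaled H3K27ac reads, against medians of 143 and 162 over all windows. In runs of 2 to 4 windows the medians were 216 and 106, in runs of 5 to 9 they were 182 and 79.6, and in runs of 10 or more 178 and 68.4. Single windows were thus raised in H3K9me2 with H3K27ac only slightly low, and long runs were low in H3K27ac with H3K9me2 moderately raised. The WT control took part in the first pattern, with 149 scaled reads in single windows and 120 in runs of 10 or more, against 124 over all windows; its part in the single-window calls was not tested. *met-2* H3K27ac followed the WT mark, with 145 scaled reads in single windows and 79.5 in the longest runs, against 165 over all windows. In single H3K27ac windows the medians were 98.2 for H3K9me2, 183 for H3K27ac and 103 for the WT control. In H3K27ac runs of 10 or more windows they were 111, 210 and 118. Single H3K27ac windows were thus low in H3K9me2 and in control reads, with H3K27ac only slightly raised.

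**Figure D4:**
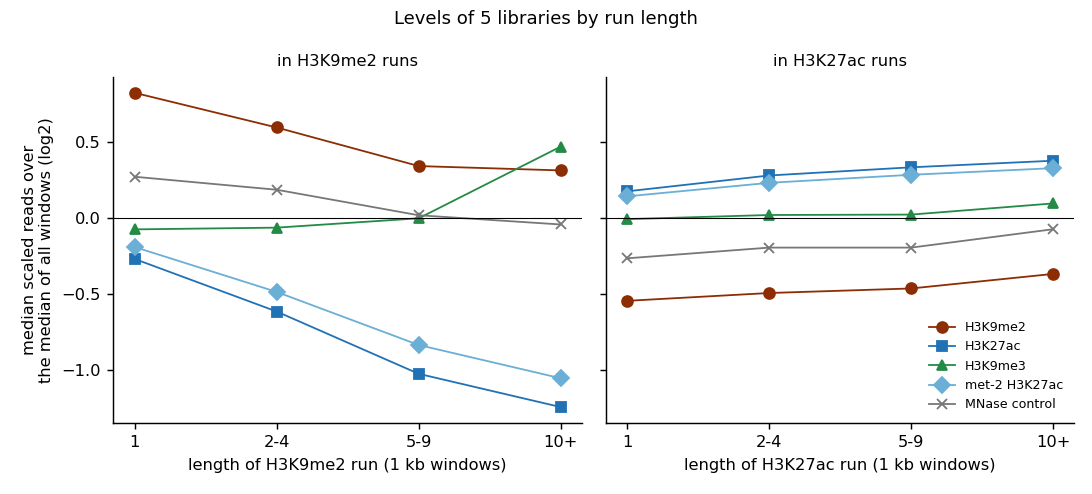
Median scaled reads of 5 libraries in H3K9me2 runs (left) and H3K27ac runs (right) of 1, 2-4, 5-9 and 10 or more 1 kb windows, as log2 over that library's median of all windows. In H3K9me2 runs the H3K9me2 line declines and both H3K27ac lines decline further as runs lengthen, and H3K9me3 departs from 0 only in runs of 10 or more; the levels of H3K9me2 and WT H3K27ac follow in part from how the runs were defined.

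H3K9me3, which the difference does not use, was nearly level across it at 1 kb. Its median was 156 scaled reads in the tenth of windows with the lowest difference and 152 in the tenth with the highest, against 157 over all windows. Spearman's rho between the difference and H3K9me3 reads was -0.03 at 1 kb and -0.22 in 100 kb sums. At 1 kb the rho of H3K9me3 reads was 0.53 with H3K9me2 and 0.62 with H3K27ac. In H3K9me2 runs of 10 or more windows H3K9me3 stood at 218 scaled reads. That rise came from 1 arm: in the 501 such windows on the right arm of V the median was 246 and 80.2% of windows exceeded the median of all windows, whereas in the 206 such windows elsewhere it was 137 and 42.2% did. In H3K27ac runs of 10 or more windows H3K9me3 was at 168.

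The surroundings of the longer runs were examined up to 20 kb from their edges. From the second window outward, the flanks of H3K9me2 runs of 5 or more windows had median differences of 0.30 to 0.46, so they lay above the genome-wide median of -0.15 on the same side as the run. H3K9me2 had returned there to between 0.91 and 0.98 times its median, while H3K27ac was still at 0.57 to 0.65 times. Inside the runs, in the last window before the edge, the levels were 1.24 times for H3K9me2 and 0.52 times for H3K27ac. The levels inside the runs follow in part from their selection on the difference. *met-2* H3K27ac was low in the same flanks, at 0.64 to 0.72 times its median, and H3K9me3 was between 0.99 and 1.07 times. Of these H3K9me2 runs 85.3% lay in autosomal arms and 33.5% on the right arm of V. Over all windows the median difference was 0.02 in the arms and 0.32 on the right arm of V. Median scaled H3K27ac reads were 132 and 103 in these regions, against 162 over all windows. Whether the flanks differ from their regions was not tested. The first window outside a run is held to the other side of the threshold by the definition of a run and is not read here.

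**Figure D5:**
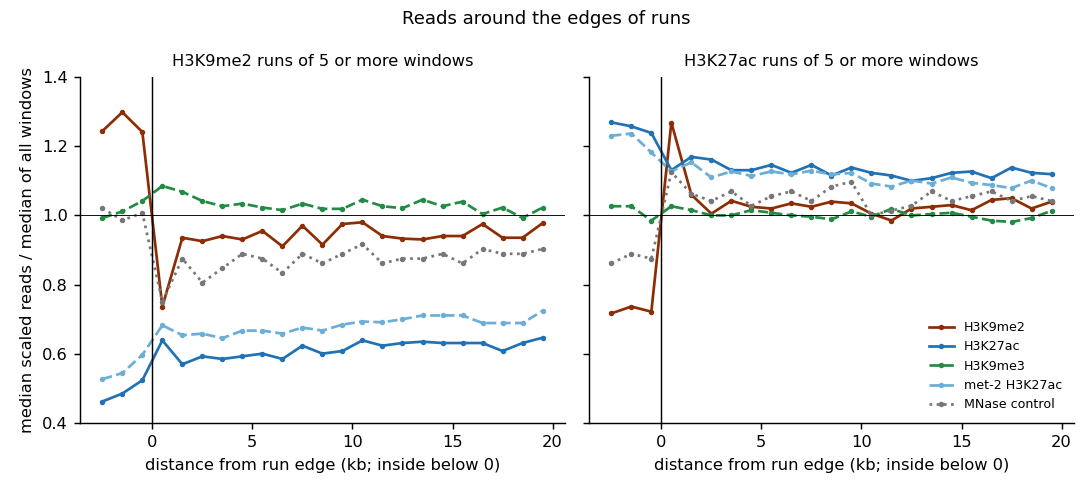
Median scaled reads of 5 libraries, as a multiple of each library's median of all windows, by distance (kb) from the edges of H3K9me2 runs (left) and H3K27ac runs (right) of 5 or more 1 kb windows; distances below 0 lie inside the run. Outside H3K9me2 runs the H3K27ac line stays near 0.6 out to 20 kb while H3K9me2 returns to near its median (1). Most H3K9me2 runs lie in autosomal arms, where H3K27ac is also below the median of all windows. The first point outside is set by the definition of a run.

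Neighbouring windows resembled each other to a different degree in the 2 marks. The Spearman correlation of adjacent windows was 0.29 for the difference, 0.21 for H3K9me2 reads and 0.44 for H3K27ac reads. At a distance of 10 windows the values were 0.14, 0.06 and 0.29, and at 200 windows 0.08, 0.02 and 0.21. The H3K9me2 library thus varied mostly from 1 window to the next, and the slow change along the chromosomes lay mainly in H3K27ac. With *met-2* H3K27ac the correlation of adjacent differences was 0.27.

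The other H3K27ac library gave a partial check of the layout, partial because it was set against the same H3K9me2 library. Of the 19635 windows above 0.5, 15294 (77.9%) were also above 0.5 with *met-2* H3K27ac and 45 were below -0.5. Of the 29804 windows below -0.5, 24567 (82.4%) stayed below and 4 were above 0.5. Over all 99471 windows, 18873 lay above 0.5 and 31422 (31.6%) below -0.5 with *met-2* H3K27ac. Since the H3K9me2 library is shared, agreement above these shares is built into the comparison in part. Of the runs of 5 or more windows, 417 of 430 H3K9me2 runs kept a mean above 0.5 and 625 of 633 H3K27ac runs a mean below -0.5. WT and *met-2* H3K27ac reads were correlated with a rho of 0.89 at 1 kb and 0.95 at 10 kb, far above the 0.51 between the marks at either size. There was no second H3K9me2 library to check the other side.

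The most extreme single windows, among those averaging at least 20 scaled reads over both libraries, carried unlike backgrounds. The highest (chrII:3468407-3469406, 4.88) had 473 H3K9me2 reads and 3 H3K27ac reads, a scaled ratio of 90.3 with a 95% counting interval of 30.7 to 439. Its WT control held 74 reads and *met-2* H3K27ac 21. The second (chrII:11759330-11760329, 4.39) had 1177 H3K9me2 and 26 H3K27ac reads. The WT control there held 2002 reads, more than the H3K9me2 library, and the *met-2* control 18, so the H3K9me2 reads of this window were matched by reads without antibody. The third (chrV:16801013-16802012, 4.34) had 3651 H3K9me2 and 97 H3K27ac reads, a scaled ratio of 21.6 (17.6 to 26.7), with 108 WT control reads and 170 H3K9me3 reads. Scaled WT control reads there were 186, against a median of 124 over all windows, and scaled *met-2* control reads 418, against a median of 144.

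At the other end were 3 windows low in H3K9me2, each with fewer than its median of 201 reads. The lowest (chrI:14117871-14118870, -3.03) had 75 H3K9me2 and 396 H3K27ac reads, with scaled H3K27ac reads 9.22 times those of H3K9me2. The next (chrX:16046677-16047676, -2.98) had 18 and 126 reads, and the last (chrII:1433425-1434424, -2.93) had 18 and 121. Scaled H3K27ac reads were 492, 157 and 150 in the 3 windows in this order, against a median of 162, so H3K27ac was raised in the first window and near its median in the others. The WT control held 104, 19 and 16 reads. H3K9me3 was above its median of 157 scaled reads in the first window, at 211, and below it in the others, at 83.9 and 76.2.

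The highest 10 kb window differed in kind between chromosomes. On V it lay inside the long stretch of the right arm (chrV:17129010-17139009, 2.58, with 2312 H3K9me2 and 216 H3K27ac reads). On I it lay at the right end of the chromosome (chrI:15059862-15069861, 2.42), with 236932 H3K9me2 reads, 25321 H3K27ac reads and 155644 WT control reads, so reads without antibody were also many there. On II (chrII:1449425-1459424, 3.21) it rested on few reads, 608 of H3K9me2 and 32 of H3K27ac. On X (chrX:16929669-16939668, 2.42) it had 4905 and 519 reads with 2218 in the control, and on IV (chrIV:13548999-13558997, 1.87) 21341 and 3347 with 2390 in the control. On III (chrIII:13589826-13599825, 1.77) it had 455 and 72 reads. These are raw reads of libraries of unlike size. After scaling, WT control reads exceeded H3K9me2 reads in the windows of I (267446 against 168657), II (526 against 433) and X (3811 against 3492). In the windows of III, IV and V scaled H3K9me2 reads were the higher.

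Lowest 10 kb windows were modest by comparison. They reached -1.18 on I (chrI:6869938-6879937, 2100 H3K9me2 and 2728 H3K27ac reads), -0.99 on II (chrII:10029346-10039345, 1614 and 1847 reads), -1.08 on III (chrIII:7539882-7549881, 1516 and 1843 reads) and -0.996 on IV (chrIV:7359056-7369055, 250 and 292 reads). On X the lowest (chrX:3429794-3439793, -1.07, 1662 and 1999 reads) lay inside the longest H3K27ac run. On V the lowest (chrV:2479146-2489145, -1.49) rested on 4 H3K9me2 and 18 H3K27ac reads, a scaled ratio of 0.127 with a counting interval of 0.031 to 0.386. The highest 10 kb window lay further from 0 than the lowest on each of the 6 chromosomes.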

How the data were processed

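The deposited table held raw read counts of 6 ChIC-seq libraries of L3 muscle in adjoining windows along the ce10 genome build; 100281 of the windows were 1000 or 999 bp wide and 12 had another width. Per their methods and processing notes, the authors trimmed reads with Trimmomatic (version 0.39), aligned them with Bowtie2, removed duplicates with Bismark and counted reads per window with QuasR. Treatment of reads mapping to several places is not given in the sources used here, so counts over repeats are uncertain. Each library was divided by its total, multiplied by the average total of the 6 libraries, 8 was added and log2 taken, as in the study's methods. Sums of 10 kb and 100 kb were formed before scaling. Arms and centres followed the study's borders, by window midpoint. Runs were adjacent windows past 0.5.

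Regions were named by rule: the 3 highest and 3 lowest 1 kb windows averaging at least 20 scaled reads, the 3 longest runs of each kind at 1 kb and 10 kb, and the highest and lowest 10 kb window of each chromosome. Stretches joined across 1 window, 100 kb sums, and the split at the right arm of V were chosen after their values were seen. All measures and rules were chosen with earlier results of these data known. With 1 library per mark no test was run. Intervals of ratios are exact (Clopper-Pearson) and cover counting error only. Gene names and sequences were not used here, as no annotation of ce10 was at hand. Python 3.11.15, pandas 2.3.3, SciPy 1.17.1 and edgeR 4.0.16 (TMM factors only) were used, and the scripts were checked on simulated counts.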

Additional observations from a re-analysis of the deposited data

Results flagged for a closer look

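The mitochondrial genome, which the comparison leaves out, took 0.590% of the reads of the H3K9me2 library (Wilson 95% interval 0.587 to 0.593%) and 0.0787% of those of the H3K27ac library, against 0.569% in the WT MNase control. The share in the H3K9me2 library was above that control by more than counting error, and below the 1.27% of the *met-2* MNase control. Scaling by nuclear reads alone left the 8 results recomputed that way within their limits.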

How the results depend on the processing

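Over the alternatives, 67 values of 9 results were recomputed: 47 stayed within 1.5 times a count or within the interval of a median or correlation, 20 did not, and 0 changed sign. The intervals treat windows as independent and are narrow. A threshold of 1 left 8076 and 9328 windows of 1 kb on the H3K9me2 and H3K27ac side, 311 and 8 of 10 kb, and 77 and 11 runs of 5 or more windows. TMM factors gave 455 H3K27ac windows of 10 kb and 300 H3K27ac runs; they raised the share of calls on the H3K9me2 side to 50.4%, against 39.7%, at 1 kb and to 80.5%, against 55.5%, at 10 kb. Runs that 1 window may interrupt numbered 1039 and 2353. Without chromosome V, chosen after seeing the data, 792 H3K9me2 windows of 10 kb and 225 H3K9me2 runs were left, the arm minus centre gap was 0.28 and the X minus autosome gap -0.10. The arm minus centre gap was 0.34 with a pseudocount of 1, 0.21 with *met-2* H3K27ac, 0.35 in 10 kb sums and 0.31 with the outer 25% as arms. The correlation of neighbours was 0.27 with *met-2* H3K27ac and 0.40 in 10 kb sums. The cause of these shifts was not tested beyond what each construction fixes. Of 72 values of the 18 named windows, 61 stayed within their intervals, 11 moved and 0 changed sign. Those windows were picked as extremes, so an unchanged sign is no check of them. The longest run fell to 16 and 7 windows at a threshold of 1. No paired analysis was possible because both marks had a single library. With 1 library per mark, no value here separates the marks from differences between these libraries, and the smaller H3K27ac library limits windows with few reads.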

Other observations

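Windows without a read in any library were concentrated on V, which held 380 of the 808, including a stretch of 70 adjacent windows; the longest stretch on another chromosome was 12 windows, on II. The 10 kb window with the lowest difference on V lies within 10 kb of the stretch of 70.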
